A study of Rattus norvegicus with 89 samples.

Results

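Glucocorticoid-responsive genes were followed in the kidneys of rats given nephrotoxic drugs, by every probe set on the array whose annotated symbol is Sgk1, Tsc22d3, Fkbp5, Nfkbia, Dusp1, Klf9 or Zbtb16. Of these 7 genes, 6 were matched to 10 probe sets among 14217 named genes on the array. Zbtb16, a zinc finger repressor, was matched to 0 probe sets and is not analysed here. The probe set with the highest mean stands for each gene, and all 6 lay above a signal of 32.1, the 40th percentile of all values, on each of the 89 arrays. All 6 therefore entered the tests with 11420 genes in total.

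In rats the glucocorticoid hormone is corticosterone, which the adrenal cortex releases in a daily rhythm and under stress. Inside a cell it binds the glucocorticoid receptor, which leaves its chaperones, enters the nucleus and binds DNA near target genes. Sgk1 is a kinase that raises sodium transport in the distal nephron and is induced through the mineralocorticoid receptor as well. Tsc22d3 (GILZ) is a leucine zipper protein that restrains inflammatory signalling. Fkbp5 is a co-chaperone that lowers the receptor's affinity for hormone and so closes a feedback loop. Nfkbia is the inhibitor that holds NF-kappaB in the cytoplasm, and NF-kappaB itself induces it. Dusp1 is a phosphatase that switches off MAP kinases, and Klf9 is a Krüppel-like transcription factor.

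The series holds 89 Sprague-Dawley rats (Crl:CD(SD)), of which 44 were male and 45 female, 7 to 8 weeks old at the start, with 1 array per rat. Rats were dosed daily for 1 or 5 days with gentamycin (the labels' spelling of the aminoglycoside), tobramycin (a related aminoglycoside), cisplatin (a platinum drug), cadmium (a metal), doxorubicin (an anthracycline), valproic acid (ValproicAcid in the labels, an anticonvulsant) or saline, and naive rats received nothing. Each group had 6 rats, 3 of either sex, except doxorubicin at day 5 (2 males and 3 females), saline at day 1 (3 males and 4 females) and saline at day 5 (3 males and 2 females). RNA came from the apical parts of both kidneys of a rat, homogenised together, so a level is an average over all cell types there, and fewer cells of a type and less RNA per cell cannot be told apart. The sources used here give neither the doses nor the hour of sampling. For 5 rats the titles were followed although another label field on treatment is empty or differs. It is empty for 1F104 and 1M4, names saline for 5 days for 1M2 (a day-1 rat) and says untreated for 5F137 and 2F114. In females of the other compounds the codes run 3 to day 1, then 3 to day 5. By that order 1F104 would stand at day 5, and placing it there was tried as an alternative.

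All values below are MAS5 signals after each array was scaled to 1 trimmed mean, which before scaling ran from 90.9 to 350.3. Defining markers of the proximal tubule were high on every array, with a summed signal of 16182 to 27219 over 7 of 7 markers. Markers of the adrenal cortex, which lies beside the kidney and makes corticosterone, summed to 30.8 to 241 over 5 of 7 markers, and Cyp11b1 and Star lay below 32.1 on all arrays. Changes are differences of log2(signal + 16). They were tested with limma in 1 fit of all 89 arrays with group and sex as terms, and p-values were adjusted by the Benjamini-Hochberg method over all 11420 genes, with 0.05 as the limit.

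The promoters of the members were read because the genes varied together. RefSeq windows of 300 bases (GRCr8, 250 bases before to 50 after a start) were matched for 6 of 7 members, 10 windows in all, since Sgk1 and Tsc22d3 have 3 each. Both strands were searched for the glucocorticoid response element (GNACA and TGTNC with any 3 bases between), the NF-kappaB site (GGGAN followed by TTTCC), the cAMP response element TGACGTCA, its shorter form TGACG (which lies inside it) and the E-box CACGTG. The glucocorticoid element was found in 0 of the 10 windows and in 0.439% of all 33469 windows. The NF-kappaB letters were in the Nfkbia window, 31 bases before the start, as in 0.362% of all windows. The full cAMP element was in the Dusp1 window, before the start, as in 1.83% of all windows. The E-box in the same window was shared with 6.42% of all windows. TGACG was in windows of Dusp1, Klf9 and Tsc22d3 and in 21.2% of all windows. The windows of Sgk1 and Fkbp5 and the other windows of Tsc22d3 held none of these letters, which says only that the letters are not in those windows. A match is likewise a description of the sequence. The 4 windows with a match are shown, 5′ to 3′ as RefSeq lists them for the gene's strand, with the matched letters in capitals:

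Nfkbia, chr6:78597023-78597322 (-): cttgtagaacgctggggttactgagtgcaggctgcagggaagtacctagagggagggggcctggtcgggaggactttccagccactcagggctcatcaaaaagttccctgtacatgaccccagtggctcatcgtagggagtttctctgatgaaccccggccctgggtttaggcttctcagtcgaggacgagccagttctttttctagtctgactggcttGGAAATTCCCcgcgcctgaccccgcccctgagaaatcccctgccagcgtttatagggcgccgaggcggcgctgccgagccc
Dusp1, chr10:17184603-17184902 (+): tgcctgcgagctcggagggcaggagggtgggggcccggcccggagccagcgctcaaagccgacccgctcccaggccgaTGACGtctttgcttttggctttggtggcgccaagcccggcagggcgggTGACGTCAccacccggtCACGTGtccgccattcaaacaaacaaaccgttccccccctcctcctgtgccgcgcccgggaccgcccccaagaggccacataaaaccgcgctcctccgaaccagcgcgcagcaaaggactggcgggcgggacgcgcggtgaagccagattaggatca
Klf9, chr1:230126396-230126695 (+): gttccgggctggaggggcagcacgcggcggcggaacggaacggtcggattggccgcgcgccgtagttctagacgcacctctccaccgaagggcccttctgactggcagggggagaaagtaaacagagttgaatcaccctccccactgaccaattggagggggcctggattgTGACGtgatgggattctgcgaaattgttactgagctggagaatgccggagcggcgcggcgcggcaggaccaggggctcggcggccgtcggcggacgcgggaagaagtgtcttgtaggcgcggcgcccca
Tsc22d3, chrX:109009985-109010284 (-): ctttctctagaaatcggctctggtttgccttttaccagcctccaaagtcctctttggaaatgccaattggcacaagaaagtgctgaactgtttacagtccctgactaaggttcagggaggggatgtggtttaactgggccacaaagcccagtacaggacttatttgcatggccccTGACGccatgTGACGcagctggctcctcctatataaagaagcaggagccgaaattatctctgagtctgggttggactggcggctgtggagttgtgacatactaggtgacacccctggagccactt

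Treatment came first in the design, and its question here was whether a toxic drug moved the glucocorticoid-responsive genes of the kidney. Of 6 members, 0 passed in any of the 12 comparisons of a treatment with saline of the same day (limma, smallest adjusted p = 0.104). The percentage of all genes called was as low: 0.123% for gentamycin, 0.508% for tobramycin, 0% for cisplatin, 0.0525% for cadmium, 0.0525% for doxorubicin and 0.228% for valproic acid at day 1. At day 5 it was 0.0175% for gentamycin, 0% for tobramycin, 0.42% for cisplatin, 0.0613% for cadmium, 0.385% for doxorubicin and 0.149% for valproic acid. Without adjustment, 10 of the 72 member values (13.9%) had p under 0.05, 8 of them higher and 2 lower than saline. Over all genes 7.51% of the values had such a p. A limma fit on the compared groups alone called 0 members as well (smallest adjusted p = 0.266).

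**Figure D1:**
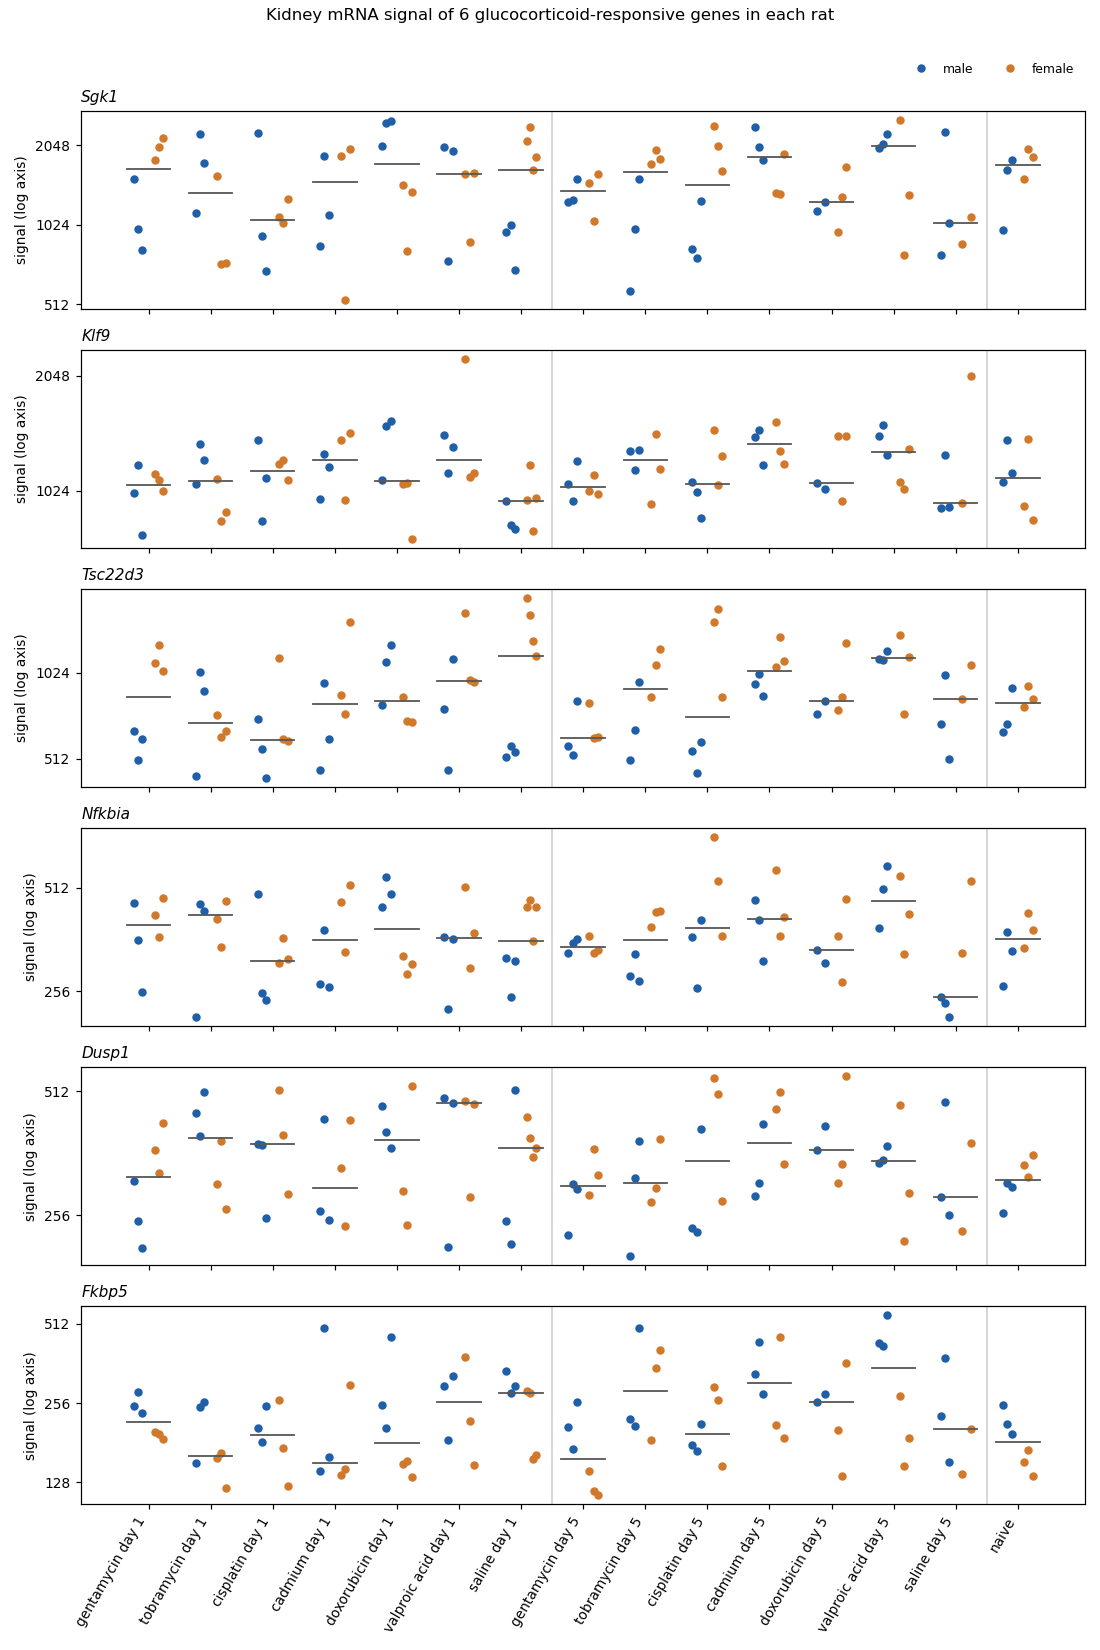
Scaled MAS5 signal (log axis) of the 6 measured members in each of 89 rats, males in blue left of females in orange, with the median of each group as a line. Treated groups stand left of saline of the same day and naive rats stand last. The groups overlap widely, and in saline at day 1 the Tsc22d3 signals of the 3 males (518 to 566) lie under those of the 4 females (1167 to 1859.9).

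The kinase Sgk1 had signals of 1339, 1849 and 2405 (lowest, median and highest of 6 rats) with cadmium at day 5. With valproic acid at day 5 they were 785, 2032 and 2547. The 5 saline rats of day 5 had 783, 862, 1033, 1097 and 2297. Cadmium gave the highest value of Sgk1 over the 12 comparisons, 0.63 (log2, SE 0.34, adjusted p = 0.859), and all 6 cadmium rats lay above the mean of saline rats of their sex. The saline value of 2297 came from 1 male, so the groups overlap. With naive rats as the reference the cadmium difference was 0.15, and the 6 naive rats had 974, 1720 and 1981. The lowest value of Sgk1 relative to saline was with cisplatin at day 1, -0.30 (SE 0.32, adjusted p = 0.989). Across the 15 groups the mean of Sgk1 spanned 0.64 on the log2 scale, cadmium at day 5 being highest and saline at day 5 lowest.

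For Tsc22d3, the anti-inflammatory zipper protein, signals with valproic acid at day 5 were 734, 1152 and 1389. The saline rats of day 5 had 512, 676, 828, 1001.0 and 1085. The difference was 0.44 (SE 0.26, adjusted p = 0.734), with 5 of 6 treated rats above saline of their sex. At day 1 the signals with cisplatin were 440.1, 596 and 1149.9, against 518, 1167 and 1859.9 with saline. That difference of -0.54 (SE 0.23, adjusted p = 0.989) was the lowest for Tsc22d3. The groups overlap, and the day-1 saline group is split by sex, as described further on.

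Fkbp5, the feedback co-chaperone, had signals of 147.6, 346 and 550.4 with valproic acid at day 5. The 5 saline rats of day 5 had 137.5, 153, 203, 228 and 378. The difference was 0.56 (SE 0.26, adjusted p = 0.596), and 5 of 6 rats lay above saline of their sex. Cadmium at day 5 gave 0.55 (SE 0.26, adjusted p = 0.780) and was higher in 6 of 6 rats. With tobramycin at day 1 the signals were 122.2, 161 and 258, against 156.5, 279.5 and 339 with saline, a difference of -0.48 (SE 0.24, adjusted p = 0.705) with 0 of 6 rats above saline of their sex. The ranges overlap in each case.

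Nfkbia, the NF-kappaB inhibitor, had signals of 329, 468 and 594 with valproic acid at day 5. With cisplatin at day 5 they were 262, 392 and 719. The saline rats of day 5 had 215, 237, 246, 330.4 and 535. The differences were 0.59 for valproic acid (SE 0.19, adjusted p = 0.307) and 0.47 for cisplatin (SE 0.19, adjusted p = 0.288), each higher in 5 of 6 rats. The 3 saline males lay at the bottom of that group and 1 saline female at its top. With naive rats as the reference the valproic acid difference was 0.36. The lowest value of Nfkbia relative to saline was with cisplatin at day 1, -0.16 (SE 0.18, adjusted p = 0.989).

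Dusp1, the MAP kinase phosphatase, was the member with the smallest span between group means, 0.37 on the log2 scale. Its 5 doxorubicin rats of day 5 had 308, 342, 369, 423 and 557, against 235, 256, 284, 384 and 483 in the 5 saline rats. The difference was 0.27 (SE 0.23, adjusted p = 0.729), and 5 of 5 rats lay above saline of their sex, although the groups overlap. Gentamycin at day 1 gave the lowest value, -0.17 (SE 0.20, adjusted p = 0.999).

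Klf9, the transcription factor, came nearest to the limit. With valproic acid at day 1 its signals were 1111, 1235 and 2267, against 805, 963 and 1194 with saline. The difference was 0.54 (95% interval 0.24 to 0.83, adjusted p = 0.104), and 6 of 6 rats lay above saline of their sex. The highest signal, 2267, came from 1 female (7F155) that stood apart from the other 5 rats (1111 to 1431). Without it the difference was 0.39 (adjusted p = 0.561). That array had a log2 ratio of 3′ to 5′ GAPDH probe sets, a sign of RNA quality, of 1.24, the third highest of all, and with that ratio as a covariate the difference was 0.44 (adjusted p = 0.164). Klf9 has 2 dimmer probe sets, on which the same difference was 0.07 (below 32.1 on 24 arrays) and -0.30 (below 32.1 on all 89). Gentamycin at day 5 gave -0.12 (SE 0.16, adjusted p = 0.819), a value whose sign changed under 7 of 29 other settings.

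**Figure D2:**
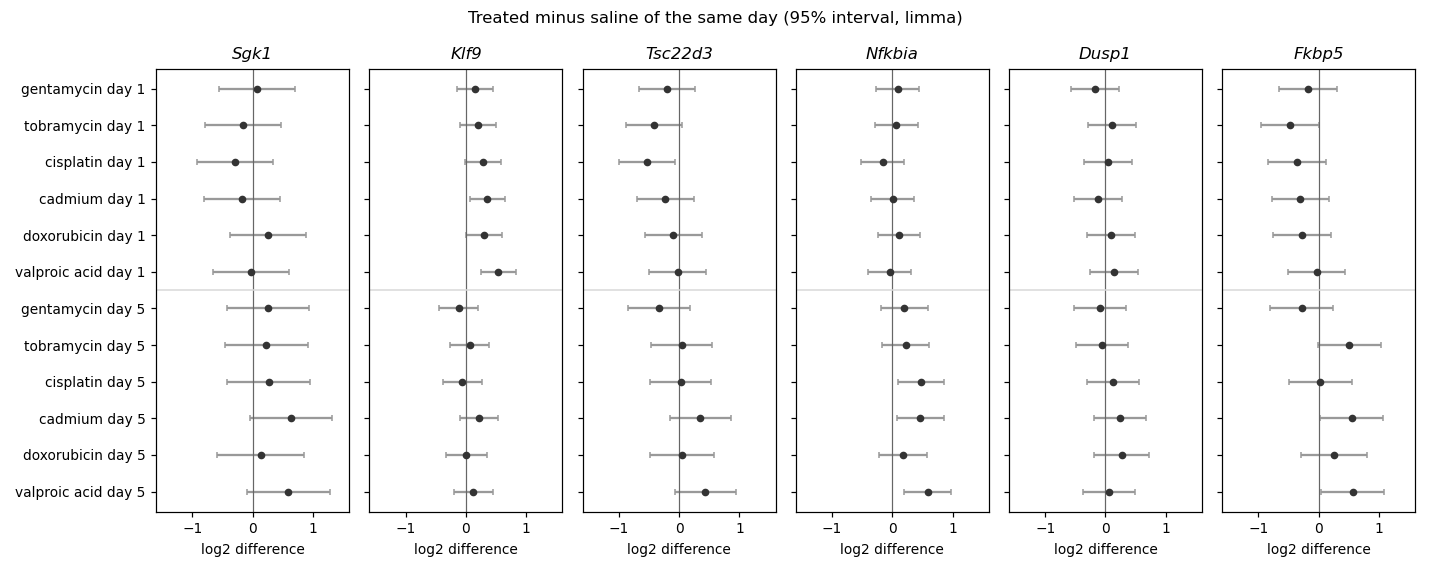
Difference in log2(signal + 16) of each measured member, treated minus saline of the same day, with its 95% interval from limma (5 to 7 rats a group). Points at day 5 lie mostly to the right of 0 and none passed after adjustment.

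The intervals show how precise each difference was, which is not the size that could pass after adjustment. They reached 0.30 to 0.34 to either side for Klf9 and 0.63 to 0.72 for Sgk1, the member that varied most between rats. No interval of a treatment difference extended past 1.32 in size. At day 5 all 6 members lay above saline with cadmium (median difference 0.41), with valproic acid (0.50) and with doxorubicin (0.15), and the median over all genes was at most 0.01 in these comparisons. The 5 saline rats of day 5 are shared by all 3. Of the 36 member values at day 5, 30 were positive. At day 1, where the controls were 7 other rats, 16 of 36 were positive. The mean of saline at day 5 was the lowest of the 15 groups for Sgk1 and Nfkbia. It lay above that of naive rats for Tsc22d3, Fkbp5, Dusp1 and Klf9. The values of a day share their saline rats and the members vary together, so they are not separate observations. The share of positive values over all genes is not given here, so these counts are not read as a result about the members.

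The controls were then compared with each other, since dosing and handling alone can raise corticosterone. Of 6 members, 0 passed for saline at day 1 against naive rats, for saline at day 5 against naive rats, or for saline at day 5 against day 1, and the percentage of all genes called was 0% in each (limma, smallest adjusted p of a member 0.630). Without adjustment, 1 of 18 member values had p under 0.05, where 7.94% of the values of all genes did, and fits on the compared groups alone called 0. Fkbp5 had signals of 156.5, 279.5 and 339 in saline rats of day 1, against 135.3, 182.7 and 252 in naive rats. The difference was 0.44 (SE 0.24, adjusted p = 0.743), and all 7 saline rats lay above naive rats of their sex. Klf9 gave 0.32 for saline at day 5 minus day 1 (SE 0.16, adjusted p = 0.630). Signals of Klf9 in the 5 saline rats of day 5 were 920.1, 930.3, 949, 1268 and 2043, against 805, 963 and 1194 in those of day 1. Without the female at 2043 (1F106) the difference was 0.11 (adjusted p = 0.999). That array had the highest log2 ratio of 3′ to 5′ GAPDH probe sets of all 89 (1.58, median 0.36). With that ratio as a covariate the difference was 0.15 (adjusted p = 0.999), and with no scaling it was 0.024 (adjusted p = 0.943).

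Whether an effect changed with the length of dosing was tested by subtracting the day-1 effect from the day-5 effect. Of 6 members, 0 passed for any of the 6 compounds (smallest adjusted p = 0.404), and the percentage of all genes called was 0.00876% for cisplatin, 0.0525% for doxorubicin and 0% for the other compounds. Of 36 member values, 25 were positive and 4 had p under 0.05, all of them positive, where 5.40% of the values of all genes had such a p, and fits on the compared groups alone called 0. The largest was Fkbp5 with tobramycin, 0.99 (SE 0.35, adjusted p = 0.943).

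Gentamycin and tobramycin are both aminoglycosides, so their groups were compared at the same day, with doses that are not given. Of 6 members, 0 passed at day 1 (0.0263% of all genes called) or at day 5 (0% called), over 12 member values in 2 comparisons, of which 1 had p under 0.05 without adjustment, where 5.92% of the values of all genes did. Fits on the compared groups alone called 0. Fkbp5 at day 5 differed most in value. Its signals were 114.6, 156.8 and 258.5 with gentamycin, against 185, 285 and 494 with tobramycin. The difference was -0.79 (95% interval -1.28 to -0.29, adjusted p = 0.788), and 0 of 6 gentamycin rats lay above the tobramycin mean of their sex. The 95% intervals of the other members at day 5 reached from -0.86 for Tsc22d3 to 0.68 for Sgk1. They show the precision of the differences and not what could pass after adjustment.

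Over all 15 groups at once, the moderated F of limma called 0 of 6 members, against 4.45% of all genes. Without adjustment 1 member, Fkbp5, had p under 0.05, and the share of all genes with such a p was not counted. The adjusted p was 0.142 for Fkbp5, 0.313 for Klf9, 0.384 for Tsc22d3, 0.561 for Nfkbia, 0.864 for Dusp1 and 0.885 for Sgk1. When the groups were ordered by their mean, no 2 neighbours of any member differed by more than 1 SD of their rats. Ordering 15 means places like values side by side, so this only describes the members and carries no test. Of all pairs of groups, 1 did not overlap for Tsc22d3 and 2 for Klf9, and the other members had 0 such pairs. Over all genes tested 16.3% had at least 1 such pair, so these counts are not read as a result about the members.

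Other genes of the same pathways, on lists drawn up with earlier results of these data known, were read beside the members. Of 30 tested genes that glucocorticoids are known to induce, 1 passed in the 12 treatment comparisons. It was Nfil3, a repressor of D-box genes, which fell by 0.91 (log2) with valproic acid at day 1 (adjusted p = 0.0242). Of 11 genes for the receptor, its chaperones and corticosterone metabolism, and of 12 genes of distal sodium and potassium transport, 0 passed in limma in these comparisons, with 25 and 11 values at p under 0.05 without adjustment, 18.9% and 7.64% of their values. Over all genes that share was 7.51%, and over the members it was 13.9%. Of 14 tested NF-kappaB targets only the chemokine Ccl20 passed, 1.98 higher with gentamycin at day 5 (adjusted p = 0.000154). Of 13 immediate early genes, Atf3 rose by 1.50 with tobramycin at day 1 (adjusted p = 0.0103) and Ier3 rose by 0.79 with cisplatin at day 5 (adjusted p = 0.0201).

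The circadian clock genes behaved otherwise. Of 14 tested, 7 passed with valproic acid at day 1, 4 higher and 3 lower, and 7 passed with doxorubicin at day 5, 5 higher and 2 lower. Dbp, a clock output factor, averaged a signal of 503.7 with valproic acid at day 1 and 144 with saline. The difference was 1.66 (SE 0.25, adjusted p = 4.3e-05). The calls on this list were 5 with doxorubicin at day 1, 4 each with tobramycin and cadmium at day 1 and with valproic acid at day 5, and 3 with cadmium at day 5. They were 0 with gentamycin and cisplatin on both days and with tobramycin at day 5. Of the same 14 genes, 12 passed the F over all groups, against 4 of the 30 glucocorticoid-induced genes (Nfil3, Rhob, Igfbp1 and Per1). The 2 lists are not separate, since Per1 belongs to the clock too. Nfil3 was called with valproic acid at day 1, where 7 clock genes passed.

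Sex was the other factor known for every rat, and 3 of 6 members passed for males minus females, 1 higher and 2 lower. This count is read against 64.2% of all genes that were called (23.9% higher and 40.4% lower), so a call by sex was common in this kidney data. Fkbp5 had signals of 141.95, 251 and 550.4 in 44 males, against 114.6, 173 and 456 in 45 females. It was 0.41 higher in males (95% interval 0.22 to 0.59, adjusted p = 8.71e-05), and the male mean was the higher one in 13 of 15 groups. The second probe set of Fkbp5 gave 0.88 in the same direction. Tsc22d3, which lies on the X chromosome, had signals of 440.1, 677 and 1281 in males, against 592, 949 and 1859.9 in females. It was -0.44 in males minus females (95% interval -0.62 to -0.26, adjusted p = 1.74e-05), and the female mean was higher in 12 of 15 groups.

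Nfkbia had signals of 215, 336 and 594 in males, against 273, 387 and 719 in females. The difference was -0.23 (95% interval -0.36 to -0.09, adjusted p = 0.00241), and the female mean was higher in 12 of 15 groups. Without scaling of the arrays it was -0.15 and did not pass (adjusted p = 0.214). The difference did not pass for Sgk1 (-0.10, 95% interval -0.34 to 0.14), for Dusp1 (-0.12, 95% interval -0.27 to 0.03) or for Klf9 (-0.00, 95% interval -0.12 to 0.11). In the 18 control rats alone the values were 0.48 for Fkbp5 (adjusted p = 0.0197), -0.73 for Tsc22d3 (adjusted p = 0.00496) and -0.51 for Nfkbia (adjusted p = 0.00138).

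**Figure D3:**
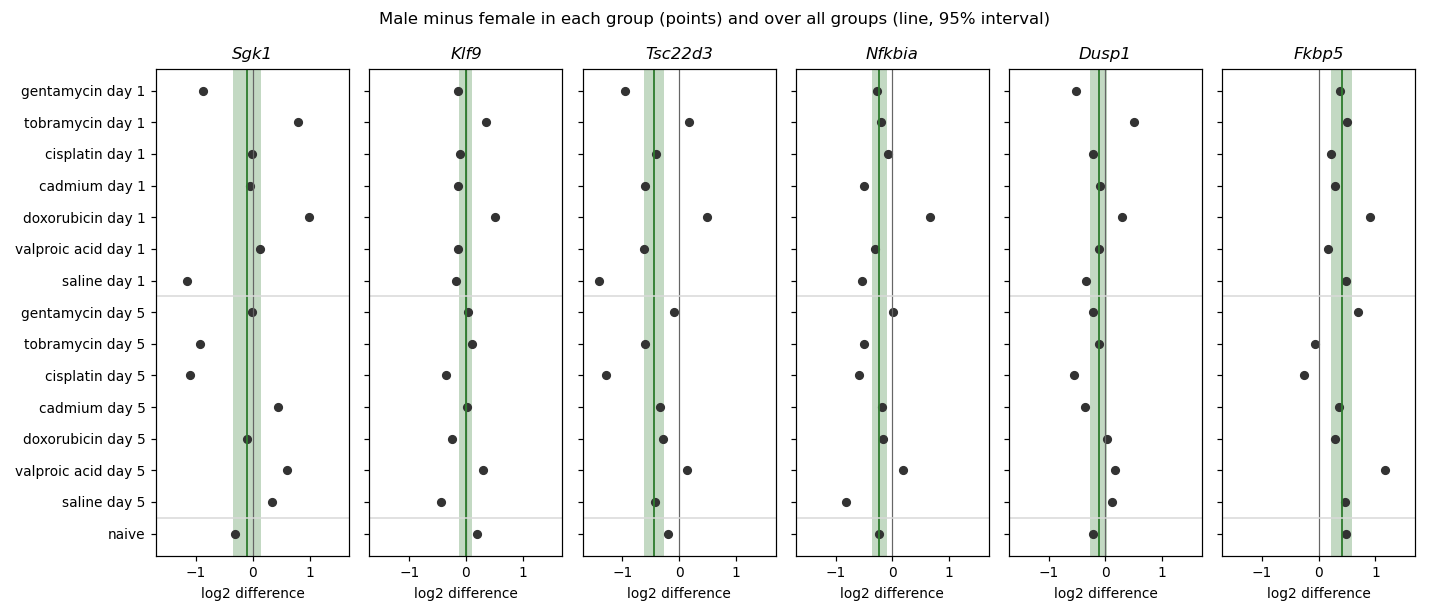
Male minus female difference of the mean log2(signal + 16) in each of the 15 groups (points, 2 to 4 rats of a sex), with the limma estimate over all groups (green line) and its 95% interval (band). Fkbp5 lies to the right of 0 in 13 groups, Tsc22d3 and Nfkbia lie to the left in 12 groups each, and Sgk1 is scattered on both sides.

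Among the receptor and corticosterone metabolism genes, 10 of 11 passed by sex, 5 higher and 5 lower in males. Hsd11b1, which regenerates active corticosterone, averaged 3368 in males and 1698 in females, a difference of 1.03 (adjusted p = 1.79e-25). Hsd11b2, which inactivates corticosterone in the distal nephron, averaged 1687 in males and 2123 in females, a difference of -0.33 (adjusted p = 1.53e-07). H6pd, which supplies the cofactor of Hsd11b1, differed by -0.32 (adjusted p = 1.73e-11). Of the 30 other glucocorticoid-induced genes, 24 passed, 8 higher and 16 lower in males, led by Glul (0.36), Cdkn1c (-0.64) and Cited2 (-0.45). Of 12 distal transport genes, 9 passed and all 9 were lower in males (40.4% of all genes were called lower and 64.2% were called in either direction, so none of these list counts is read as particular to its list), with the sodium channel subunit Scnn1a at -0.45 (adjusted p = 9.01e-09).

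The difference between the sexes was not equal in all groups. For Tsc22d3 and Sgk1 the largest difference was in saline at day 1. There Tsc22d3 had signals of 518, 541 and 566 in the 3 males, against 1167, 1321, 1623 and 1859.9 in the 4 females, and the sexes did not overlap. Sgk1 in the same rats averaged 889.7 in males and 2003 in females. Of the 15 groups, the sexes did not overlap in 4 for Tsc22d3 and in 5 for Sgk1. Among these were cisplatin at day 5 (-1.28 for Tsc22d3 and -1.10 for Sgk1) and, with males higher, Sgk1 with doxorubicin at day 1 (0.99). How many of all genes lack such overlap was not counted, so it is not read as a result about the members. A test of sex by group over all 15 groups called 0 members (moderated F of limma, adjusted p = 0.108 for Tsc22d3 and 0.179 for Sgk1), against 0.166% of all genes. Without adjustment 3 members, Tsc22d3, Sgk1 and Nfkbia, had p under 0.05. The share of all genes with such a p was not counted, so this is not read as a result about the members.

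Each treatment's effect in males minus its effect in females was also tested, a comparison chosen once the values were known. It called 1 of 6 members in 1 of 12 comparisons, Tsc22d3 with doxorubicin at day 1, where 0.0438% of all genes were called. The percentage was 0.00876% with valproic acid at day 5 and 0% elsewhere. Signals with doxorubicin were 789, 1113 and 1281 in males and 690.4, 696 and 842 in females, against the saline values just given. Tsc22d3 was thus 0.92 above saline in males and -0.97 relative to saline in females, a difference of 1.90 (SE 0.39, adjusted p = 0.0339). Neither sex passed on its own (adjusted p = 0.239 in males and 0.357 in females). The call was lost when 1 of 9 rats was left out (saline rats 1M1, 1M2, 1M3, 1F101 and 1F102 and doxorubicin rats 6M47, 6M48, 6F147 and 6F148), with a difference of 1.75 to 1.93 and an adjusted p of 0.0690 to 0.193. Without scaling of the arrays the difference was 1.69 (adjusted p = 1.00). Without the 5 arrays of doubtful treatment text, among them a saline female and a saline male of day 1, the difference was 2.04 (adjusted p = 0.0708). For Sgk1 the same difference was 2.15 (SE 0.54, adjusted p = 0.178) and for Nfkbia it was 1.21 (SE 0.32, adjusted p = 0.230). The sign was not particular to doxorubicin. With every compound at day 1 the difference was positive, from 0.46 (gentamycin) to 1.90 for Tsc22d3 and from 0.28 (gentamycin) to 2.15 for Sgk1. All of these share the same saline rats of day 1. At day 5 it ran from -0.86 with cisplatin to 0.56 with valproic acid for Tsc22d3.

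Within 1 sex, 2 further member values passed over the 12 comparisons, 1 in females and 1 in males. In females Tsc22d3 had signals of 612, 638 and 729 with tobramycin at day 1, against 1167, 1321, 1623 and 1859.9 with saline. The change was -1.14 (limma adjusted p = 0.0189), and the groups did not overlap. Mean signals were 660 in these tobramycin females and 1493 in the saline females, the highest female mean of the 15 groups. They were 956 in saline females of day 5 and 843 in naive females. For tobramycin females at day 1 the percentage of all genes called was 0.569%. In males the signals were 447, 879.9 and 1029.5 with tobramycin, against 518, 541 and 566 with saline. The female call was lost without saline rat 1F101 or 1F102 or tobramycin rat 4F129 or 4F130 (change -1.12 to -1.03, adjusted p 0.0760 to 0.165), with no scaling (-1.33, adjusted p = 0.542) and in a fit on the compared groups alone (-1.14, adjusted p = 0.0780). In males Nfkbia had signals of 391, 508 and 594 with valproic acid at day 5, against 215, 237 and 246 with saline. It was 1.03 higher (limma adjusted p = 0.0268), again without overlap, and the female difference was 0.02. Those saline males had the lowest male mean of the 15 groups, 233, against 293 in saline males of day 1 and 327 in naive males. The percentage of all genes called for valproic acid males at day 5 was 0.306%. In the other comparisons it was 0.954% with doxorubicin, 0.517% with cisplatin and 0.0876% with cadmium in males at day 5, and at most 0.0613% elsewhere in males and 0.342% in females. That call was lost without saline rat 1M4, 1M5 or 1M6 or valproic acid rat 7M59 or 7M60 (change 0.89 to 1.07, adjusted p 0.0824 to 0.223), without the 5 arrays of doubtful treatment text (1.07, adjusted p = 0.103), with no scaling (1.03, adjusted p = 1.00) and in a fit on the compared groups alone (1.03, adjusted p = 0.148). The difference between the sexes did not pass in either case (adjusted p = 0.433 for Tsc22d3 and 0.443 for Nfkbia). How many of all genes lack overlap in these comparisons within 1 sex was not counted. The lack of overlap is therefore not read as a result about the members.

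The members also differed between rats that were treated alike. After group and sex were removed, the residual SD of Sgk1 was 0.58 on the log2 scale, larger than that of 98.2% of all genes tested, whose median was 0.20. The residual SD was 0.44 for Fkbp5 and 0.43 for Tsc22d3, larger than in 95.6% and 95.2% of genes. It was 0.37 for Dusp1 (91.3%), 0.33 for Nfkbia (86.7%) and 0.27 for Klf9 (76.8%). Among the 1000 genes nearest in level, the percentages ran from 88.8% for Klf9 to 99.2% for Sgk1. These percentages describe the members and carry no test.

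The members varied together from rat to rat. The deviations of the 89 rats from their group and sex were positively correlated in all 15 pairs of members, and all 15 pairs passed (two-sided permutation test of Pearson's r with 100000 resamples, adjusted p between 1e-05, the smallest it can give, and 0.00986). The highest r in this fit was that of Sgk1 with Tsc22d3 (r = 0.77, rho = 0.79, permutation p = 1e-05 for either). Without the 2 rats farthest from the median of Sgk1 it was r = 0.77 again. Tsc22d3 with Fkbp5 followed (r = 0.72, rho = 0.68, permutation p = 1e-05 for either, r = 0.71 without 2 rats). The weakest was Dusp1 with Klf9 (r = 0.27, permutation p = 0.00986, rho = 0.27, permutation p = 0.00914, r = 0.25 without 2 rats). The median r of the 15 pairs was 0.55. Over all genes tested the median r with a member ran from -0.02 with Sgk1 to 0.03 with Klf9. The share of all pairs of genes that pass this test was not counted. The count of passing pairs is therefore not read as a result about the members.

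**Figure D4:**
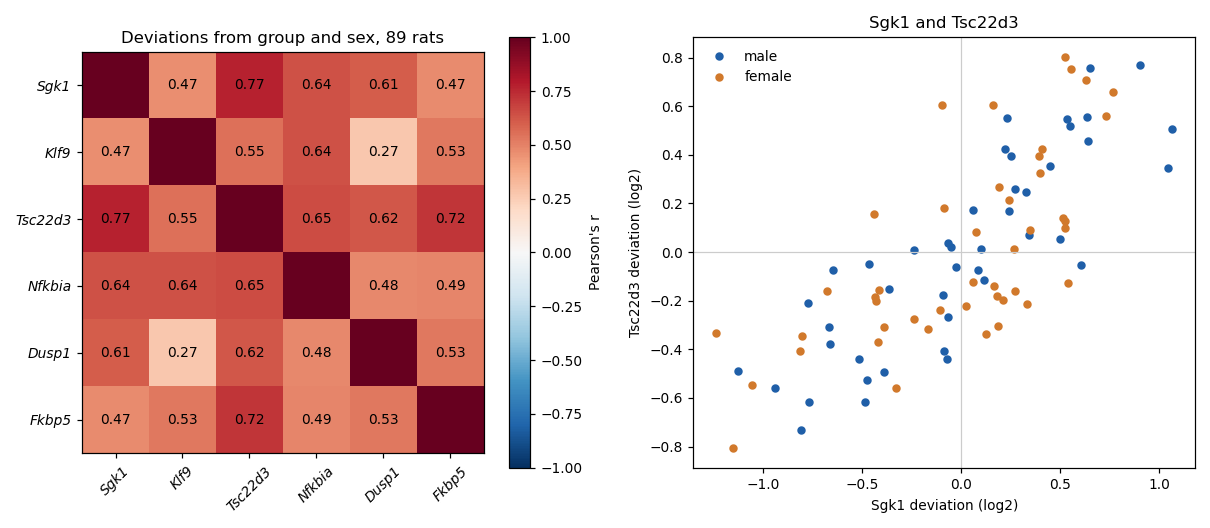
Left, Pearson's r between members over 89 rats, after group and sex were removed, from 0.27 (Dusp1 with Klf9) to 0.77 (Sgk1 with Tsc22d3). Right, log2 deviations of Tsc22d3 against those of Sgk1, 1 point per rat with males in blue and females in orange, rising together in both sexes.

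Seen rat by rat, 15 of 89 rats had all 6 members above the fit of their group and sex, and 13 rats had 0 above it. The 15 rats were 8 males and 7 females from 11 groups, and the 13 rats were 9 males and 4 females from 8 groups. A further 18 rats had 5 members above the fit and 15 rats had 1. The other counts were 7 rats with 4, 8 rats with 3 and 13 rats with 2.

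**Figure D5:**
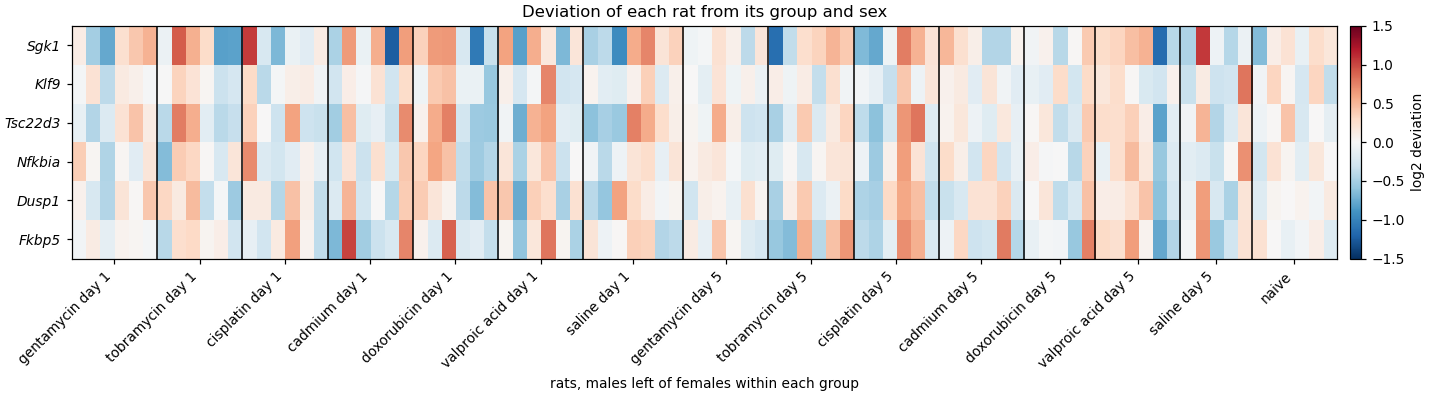
Log2 deviation of each of 89 rats (columns, in group order with males left of females) from the fit of group and sex for the 6 measured members (rows), red above and blue below the fit. Columns tend to be of 1 colour, with 15 rats above the fit in all 6 members and 13 below it in all 6.

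Within the sexes the counts were close, with 14 of 15 pairs passing in the 44 males, in the 45 females and when deviations were taken from each group and sex on its own. The exception was Dusp1 with Klf9 each time. The order of the pairs was not the same in each. Tsc22d3 with Fkbp5 had a higher r than Sgk1 with Tsc22d3 in females (0.85 and 0.56) and in deviations from each group and sex (0.79 and 0.69), and a lower one in males (0.72 and 0.81). In the 18 control rats alone all 15 pairs were positive (median r = 0.40) and 2 passed, Sgk1 with Tsc22d3 (r = 0.76, permutation p adjusted over the pairs 0.001125) and Nfkbia with Klf9 (r = 0.83, permutation p adjusted over the pairs 6e-04). With 18 rats the smaller correlations were not detectable.

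Against the other genes on the array, the rank of a member in another member's list varied. Among 11419 genes the nearest to Sgk1, to Fkbp5 and to Dusp1 was Tsc22d3, and the nearest to Klf9 was Nfkbia. Farther down, Fkbp5 held rank 56 and Klf9 rank 59 in the list of Sgk1. Klf9 held rank 353 in the list of Dusp1, and Dusp1 held rank 1356 in that of Klf9. The 3 genes most like each member, apart from the members, were picked for their r and are given with no test. For Sgk1 they were Per1 (r = 0.74), a clock gene that glucocorticoids induce, Depp1 (0.69), a FOXO target, and Zfp36 (0.65), which destabilises inflammatory mRNAs. For Tsc22d3 they were Herpud1 (0.78), of the endoplasmic reticulum stress response, the ubiquitin protease Usp2 (0.72) and Depp1 (0.70). For Fkbp5 they were Usp2 (0.71), proline dehydrogenase Prodh (0.70) and the transcription factor Foxo3 (0.67). For Nfkbia they were Klf2 (0.75), Cebpd (0.72) and Depp1 (0.71), and for Klf9 they were Fem1a (0.62), Klf2 (0.62) and Mtf1 (0.62). For Dusp1 they were Rapgef5 (0.61), Myzap (0.57) and Tmem238l (0.53).

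Of the 30 other glucocorticoid-induced genes, 5 had r over 0.5 with Sgk1 (Per1, Errfi1, Cebpd, Ddit4 and Sult1a1), or 16.7%, and 0.307% of all genes did. With Tsc22d3 there were 6 (20%, against 0.377% of all genes) and with Nfkbia 6 (20%, against 0.193%). With Fkbp5 there were 5 (16.7%, against 0.254%), with Klf9 there were 2 (6.67%, against 0.604%) and with Dusp1 there were 0 (0.0701% of all genes). Of 13 immediate early genes, 2 (15.4%, Zfp36 and Klf2) had r over 0.5 with Sgk1, with Tsc22d3 and with Nfkbia, a share close to that of the glucocorticoid-induced list. Of the 14 genes on the clock list, 0 had r over 0.5 with any member, and their median r ran from -0.13 with Sgk1 to 0.10 with Klf9. Per1 belongs to the clock too but was placed on the glucocorticoid-induced list, and its r was over 0.5 with each member but Dusp1 (0.74 with Sgk1, 0.70 with Nfkbia, 0.69 with Tsc22d3, 0.60 with Klf9, 0.51 with Fkbp5 and 0.46 with Dusp1). Of the 11 receptor and metabolism genes 0 did, with a median r between -0.15 and 0.03. These shares come from 1 set of arrays, so the genes are not independent of each other.

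Technical measures and markers of other cells were set against the same deviations in 78 relations. The log2 trimmed mean of an array passed with 0 of 6 members. The GAPDH ratio passed with Klf9 alone (r = 0.51, rho = 0.37, permutation p adjusted over the 78 relations 7.8e-04, r = 0.44 without 2 rats). With both measures removed, 15 of 15 member pairs passed (median r = 0.62). The summed signal of 5 collecting duct markers, the segment where Sgk1 acts, passed with Tsc22d3 (r = 0.40), Nfkbia (0.37), Dusp1 (0.34) and Fkbp5 (0.31). For those that passed, the permutation p adjusted over the 78 relations ran from 0.00429 to 0.0312. Their rho ran from 0.30 to 0.41, and r without 2 rats from 0.31 to 0.40. The sum did not pass with Sgk1 itself (r = 0.21, rho = 0.25, adjusted permutation p = 0.181) or with Klf9 (r = 0.10, adjusted permutation p = 0.560). Over all arrays that sum ran from 3179 to 7732. Macrophage markers passed with Nfkbia (r = 0.38, rho = 0.35, adjusted permutation p = 0.00520, r = 0.30 without 2 rats). Proximal tubule markers passed with Klf9 (r = 0.32, rho = 0.30, adjusted permutation p = 0.0280, r = 0.24 without 2 rats). Podocyte markers passed with Sgk1 (r = -0.34, rho = -0.32, adjusted permutation p = 0.0140, r = -0.34 without 2 rats). Adrenal cortex markers passed with 0 members, with r from -0.02 for Klf9 to 0.12 for Dusp1. The part of these cells in the correlations between members was not tested.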

How the data were processed

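RNA from the kidneys of 89 rats was measured on 1 Affymetrix array per rat. The authors deposited 1 intensity per probe set and array, a linear MAS5 signal per the submitters' processing notes. The sources used here give no MAS5 version, scaling or detection calls, so counting depth does not apply and the number of arrays limits the precision. The values were read as 31099 probe sets, none at or below 0, and 57 control probe sets were removed. Of the rest, 20826 had 1 gene symbol, 436 had several and 9780 had none, and 20758 symbols were updated through their Entrez ID.

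Each array was multiplied to reach a 2% trimmed mean of 174.8, which moves arrays relative to each other by up to 3.85 times. Values were then taken as log2(signal + 16), and the fit was checked on simulated data. A gene was represented by its probe set with the highest mean and tested where 5 or more arrays were above the 40th percentile of all values. limma 3.58.1 in R 4.3.3 fitted 15 groups and sex on all arrays (eBayes with trend and robust), with Benjamini-Hochberg adjustment over 11420 genes for each comparison. Correlations used residuals of group and sex, with 100000 permutations in scipy 1.17.1. Rats are separate animals. No hybridisation date or other batch is named in the labels, so none could be fitted. Ranks of probe sets on different arrays correlated at 0.911 to 0.978, so no array was a copy of another.

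Named values were those past the limit, the highest and lowest treatment value of each member, the 3 genes most like each member, and the 3 genes of a list with the smallest adjusted p in a comparison. A few further values are given beside them. The members and the lists were chosen with earlier results of these data known. Promoter windows came from RefSeq (GRCr8). Alternatives covered the scaling, pseudocount, filter, probe set, array weights, the groups in the fit, pooled controls, doubtful arrays and each rat left out.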

Additional observations from a re-analysis of the deposited data

Results flagged for a closer look

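In 4 of the 90 groups of member values, 1 rat stood apart from the others of its group by Dixon's criterion, which chance meets in about 1 in 20 groups. For Sgk1, naive male 8M81 had a signal of 974, and the other naive rats had 1526 to 1981. For Tsc22d3, doxorubicin female 6F151 of day 5 had 1300.3, and the others had 733 to 843. Also for Tsc22d3, valproic acid female 7F159 of day 5 had 734, and the others had 1132 to 1389. For Klf9, valproic acid female 7F155 of day 1 had 2267, and the others had 1111 to 1431; the log2 GAPDH ratio of that array was 1.24, the third highest of 89.

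Of the 72 member values in the 12 treatment comparisons, 7 were flagged because all treated males and all treated females lay on opposite sides of saline. The mean of saline rats of the same sex was the reference. How many of all genes have this pattern was not counted, so the 7 are not read as a result about the members. The values are log2 effects in males minus effects in females, with limma's adjusted p over all genes, and 1 of the 7 passed. Sgk1 differed by 1.96 with tobramycin at day 1 (0.90 in males and -1.06 in females, adjusted p = 0.656) and by 2.15 with doxorubicin at day 1 (1.40 and -0.75, adjusted p = 0.178). Tsc22d3 differed by 1.90 with doxorubicin at day 1 (0.92 and -0.97, adjusted p = 0.0339). Nfkbia differed by 0.83 with gentamycin at day 5 (0.55 and -0.27, adjusted p = 0.226) and by 1.21 with doxorubicin at day 1 (0.74 and -0.47, adjusted p = 0.230). Dusp1 differed by 0.85 with tobramycin at day 1 (0.55 and -0.29, adjusted p = 1.00). Klf9 differed by 0.73 with valproic acid at day 5 (0.44 and -0.29, adjusted p = 0.502). The comparisons of a day share the same saline rats.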

How the results depend on the processing

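No member passed in a treatment comparison under 174 alternatives at day 1 and 161 at day 5, in a control comparison under 78, in the change between days under 227, between the aminoglycosides under 52, or in the F over groups under any alternative tried. By sex, 2 or 3 members passed under each alternative tried, and without scaling Nfkbia did not. Klf9 with gentamycin at day 5 changed sign with no scaling (0.020), the mean of all its probe sets (0.16), array quality weights (0.058), the GAPDH ratio as a covariate (0.067), saline and naive rats pooled (0.019) and its second probe set (0.71). Leaving out each rat in turn gave Klf9 there -0.21 to 0.084, positive without saline female 1F106. Klf9 with valproic acid at day 1 was -0.30 on its dimmest probe set, and Dusp1 with gentamycin at day 1 was 0.039 on its second. The count of members called for effects in males minus females, 1 as reported, was 0 with no scaling, 0 without the 5 doubtful arrays and 3 in a fit on the compared groups (Sgk1, Tsc22d3 and Nfkbia with doxorubicin at day 1). It was 0 to 5 with a rat left out, with 2 without tobramycin male 4M28 and 5 without saline female 1F105, which leaves 1 saline female at day 5 (1F106, the array with the highest GAPDH ratio, log2 1.58), assumed to vary like the other groups. The count in males was 0 with no scaling, 0 without the 5 arrays and 0 to 1 with a rat left out. The count in females was 0 with no scaling, 0 in a fit on the compared groups and 0 to 4 with a rat left out, the highest without 1F105, on that same lone female. In the 18 control rats 2 of 15 member correlations passed, in a test with fewer rats. No paired analysis was possible because animal codes tie no rats together and each rat has 1 array. The number of rats limits the precision, and intervals reached 0.72 to either side for Sgk1.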
